A study of Mus musculus with 32 samples.

Results

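The macrophage and myeloid cell genes examined here are a list of 34 genes, chosen by symbol, of which 33 were measured among 15780 named genes on the array. No probe set was named for Lilrb4a. By known role the 33 genes fell into 15 that mark macrophages, monocytes and leukocytes as such, 9 inflammatory receptors, integrins and enzymes, 5 genes of resident and scavenger macrophages and 4 genes of phagocytes in repair. Their levels spread widely between kidneys of one group. In 30-week NZB/W replicate 2, 30 of the 33 genes were the highest of their group, and in NZM2410 replicate 3 the count was again 30 of 33. None of the 33 genes passed the test in any of the 4 comparisons among NZB/W groups, where at most 0.0697% of all genes passed in either direction. Between the strains, Tlr2, Gpnmb and Lgals3 were higher and Folr2 and Cd163 lower in treated NZM2410 kidneys than in 30-week NZB/W kidneys, where 31.5% of all genes were called higher and 31.3% lower. The calls of Lgals3 and Cd163 were lost in several alternative fits.

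Whole-kidney RNA of lupus-prone mice was hybridized to 32 Affymetrix arrays, 1 kidney sample per array. NZB/W mice, a hybrid strain whose females develop proliferative lupus nephritis, gave 26 kidneys in 4 groups. These were 7 kidneys at the age of 30 weeks, not proteinuric and with no treatment named (the 30-week group), 8 in early remission after CTX+CTLA4Ig+anti-CD154 (early remission), 6 in late remission after the same triple therapy (late triple therapy, replicates 6 to 11) and 5 in late remission after Ad-TACI-Ig+CTLA4Ig (the TACI-Ig group). NZM2410 mice, a related inbred lupus strain, gave 6 kidneys in remission after Ad-BAFF-R-Ig. CTX is cyclophosphamide, CTLA4Ig blocks T cell costimulation, anti-CD154 blocks the CD40 ligand, and the adenoviral (Ad) vectors express soluble receptors, of which TACI-Ig binds BAFF and APRIL and BAFF-R-Ig binds BAFF. Ages of the treated mice are not given in the labels. Untreated NZM2410 kidneys and kidneys with active nephritis are not analysed here, so strain and treatment cannot be told apart in the NZM2410 comparisons, and no change from active nephritis is measured.

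The kidney holds a resident network of mononuclear phagocytes between its tubules, marked by the adhesion receptor Adgre1, CX3CR1 and the receptor for colony-stimulating factor 1 (Csf1r). These cells clear debris and sense immune complexes, and in lupus nephritis they are joined by recruited monocytes. Recruited cells carry the integrins CD11b (Itgam with Itgb2) and CD11c (Itgax with Itgb2), formyl peptide receptors, Toll-like receptors and C-type lectins. Scavenger receptors such as CD206 (Mrc1) and CD163, and the folate receptor beta (Folr2), are typical of tissue-resident macrophages.

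The values are log2 expression values, and 1 unit is a doubling. Medians over probe sets ranged from 7.02 to 7.16 between arrays. Precision rests on the number of arrays, which have no read depth. The late triple therapy mean differed by at most 0.0255, in any gene, from the pooled mean of the 30-week and TACI-Ig kidneys, and by at most 0.0117 in the 33 genes. Late triple therapy was therefore not tested against either of these groups, and its values against early remission are not independent of theirs. The sample names of 30-week replicate 6 and early remission replicate 1 hold the same mouse code. The codes of all other samples differ, but the labels do not say that these are separate mice, so p-values measure the spread between these samples. Batches are not named, although the values were batch-corrected.

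The mean log2 level over the 32 kidneys was 10.56 for Ctss, which encodes the lysosomal protease cathepsin S, 10.07 for Csf1r and 10.05 for Lyz2, the lysozyme of myeloid cells. At the low end it was 5.11 for Itgam and 4.95 for Cd163, the haemoglobin scavenger receptor. These are levels of different probe sets and do not order the transcripts. In bulk kidney RNA, fewer macrophages and less RNA of a gene per macrophage cannot be told apart.

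The within-group SD, pooled over the 5 groups, had a median of 0.59 over the 33 genes and of 0.14 over all 15780 genes, and 28 of the 33 genes lay in the top 10% of all genes by this SD. With 30-week replicate 2 and NZM2410 replicate 3 left out, the medians were 0.49 and 0.14. The widest spread was that of Ms4a7 (SD 0.99), a membrane protein of macrophages, and of Clec4a3 (0.98), a C-type lectin of myeloid cells. Ms4a6d (0.82) and Fpr2 (0.81) followed. The narrowest was that of Folr2 (0.16), Trem2 (0.19), Csf1r (0.20) and Msr1 (0.22). By role, the median SD was 0.69 for identity genes, 0.52 for inflammatory genes, 0.26 for resident and scavenger genes and 0.27 for phagocyte and repair genes.

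Fpr2, a receptor for formylated peptides that draws phagocytes to damage, shows this spread. Its log2 values ran from 5.76 to 9.05 (median 6.95) at 30 weeks, from 5.94 to 6.93 (median 6.43) in early remission, from 5.53 to 7.91 (median 7.18) in late triple therapy and from 5.49 to 7.15 (median 6.59) in NZM2410 kidneys. The 5 TACI-Ig kidneys had Fpr2 values of 7.62, 6.12, 7.16, 6.14 and 8.47. All 5 groups overlapped, and early remission was the narrowest, with an SD of 0.32 against 1.10 at 30 weeks.

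Cd68, a lysosomal glycoprotein used as a general macrophage marker, had log2 values of 7.01, 6.42, 6.74, 6.23 and 7.66 in the TACI-Ig kidneys. It ran from 6.57 to 8.29 (median 7.07) at 30 weeks, from 5.94 to 7.78 (median 6.89) in early remission, from 6.10 to 7.75 (median 7.10) in late triple therapy and from 5.57 to 7.69 (median 6.51) in NZM2410 kidneys. Adgre1 ran from 6.91 to 8.77 at 30 weeks, from 6.89 to 7.80 in early remission, from 6.59 to 8.68 in late triple therapy, from 6.50 to 8.95 in the TACI-Ig group and from 6.33 to 8.46 in NZM2410 kidneys. For both markers all 5 groups overlapped. Tyrobp, the adaptor DAP12 that carries the signal of TREM and other myeloid receptors, ran from 8.12 to 9.03 in early remission and reached 10.54 in 30-week replicate 2 and 10.30 in TACI-Ig replicate 5.

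**Figure D1:**
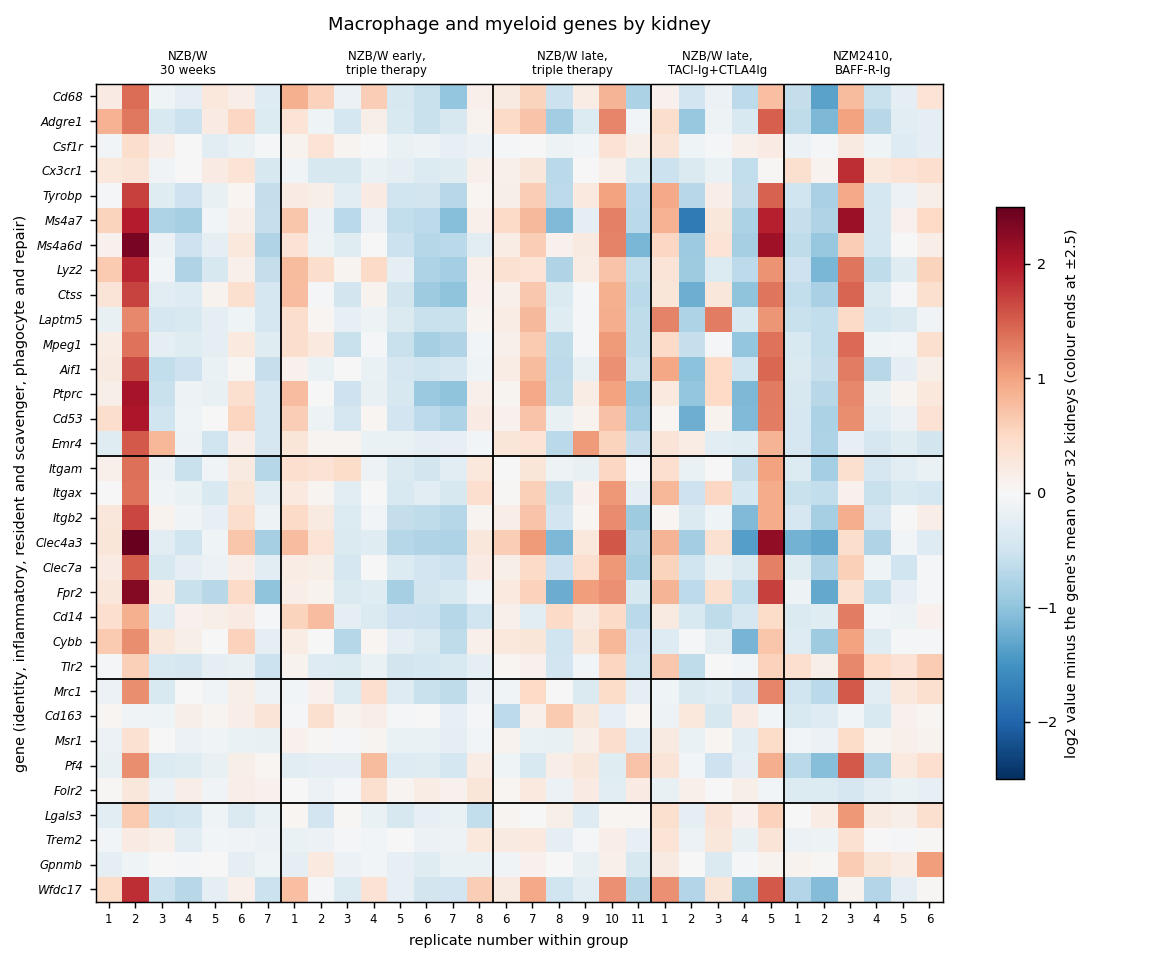
Log2 value of each of the 33 genes minus its mean over the 32 kidneys, with genes in rows ordered by role and kidneys in columns ordered by group. 30-week replicate 2, TACI-Ig replicate 5, late triple therapy replicate 10 and NZM2410 replicate 3 are high over most genes, with 30, 26, 24 and 30 of 33 genes the highest of their group. The same counts over all genes were not made.

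Most genes were high in the same kidneys. In 30-week replicate 2 the median excess over the mean of the other 6 kidneys was 1.47 over the 33 genes and -0.0008 over all genes. Clec4a3 was 2.73 above the others' mean there (8.94 against 5.49 to 7.03), Ms4a6d 2.59 (8.03 against 4.89 to 5.92) and Ptprc, the pan-leukocyte antigen CD45, 2.18 (10.74 against 8.13 to 9.09). Csf1r exceeded the others' mean by 0.50 (10.51 against 9.80 to 10.24). The 3 genes that were not highest there were Cx3cr1 (6.69, with 6.73 in replicate 6), Gpnmb (5.79 against 5.65 to 5.91) and Cd163 (4.86 against 4.84 to 5.28).

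In NZM2410 replicate 3 the median excess over the mean of the other 5 kidneys was 1.17 over the 33 genes and -0.01 over all genes. Ms4a7 exceeded it by 2.38 (9.02 against 6.12 to 7.36), Pf4, platelet factor 4, by 1.89 (7.82 against 5.24 to 6.72) and Mrc1 by 1.69 (8.95 against 6.74 to 7.81). The fractalkine receptor Cx3cr1, which was not highest in 30-week replicate 2, was 1.55 above the others' mean here (8.23 against 6.46 to 6.79). The 3 genes not highest in this kidney were Folr2, which was the lowest of its group there (6.31 against 6.39 to 6.57), Cd163 and Gpnmb. In the TACI-Ig group, replicate 5 was highest for 26 of 33 genes, and replicates 2 and 4 were lowest for 15 and 13. In late triple therapy, replicate 10 was highest for 24 genes and replicates 8 and 11 lowest for 12 and 15. In early remission, replicate 1 was highest for 20 genes and replicate 7 lowest for 19. In NZM2410 kidneys, replicate 2 was lowest for 26. Such counts were not made over all genes.

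Marker genes of other cells also stood apart in these kidneys. A list's level is the mean over its genes of the log2 value minus the gene's mean over the 32 kidneys. In 30-week replicate 2 the T cell list stood at 0.79 (6 of 7 genes highest of the group, other kidneys -0.40 to 0.031) and the B cell list at 1.20 (3 of 4 genes highest of the group, other kidneys -0.28 to 0.31). The plasma cell list stood at 1.08 (4 of 5 genes highest of the group, other kidneys -0.26 to 0.43) and the lymph node stroma list at 1.08 (4 of 4 genes highest of the group, other kidneys -0.26 to 0.23). The proximal tubule list stood at -0.47 (5 of 7 genes lowest of the group, other kidneys 0.046 to 0.19), so leukocyte and lymph node genes were high and tubule genes low in that kidney. In NZM2410 replicate 3 the T cell list stood at 0.42 (6 of 7 genes highest of the group, other kidneys -0.42 to -0.07) and the tubular injury list at 1.86 (4 of 4 genes highest of the group, other kidneys -0.91 to 0.25). The proximal tubule list stood at -0.093 (7 of 7 genes lowest of the group, other kidneys 0.16 to 0.28), and the B cell list at -0.71 (1 of 4 genes highest of the group, other kidneys -0.86 to -0.60). The part of these other cells in the level of the macrophage genes was not tested.

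**Figure D2:**
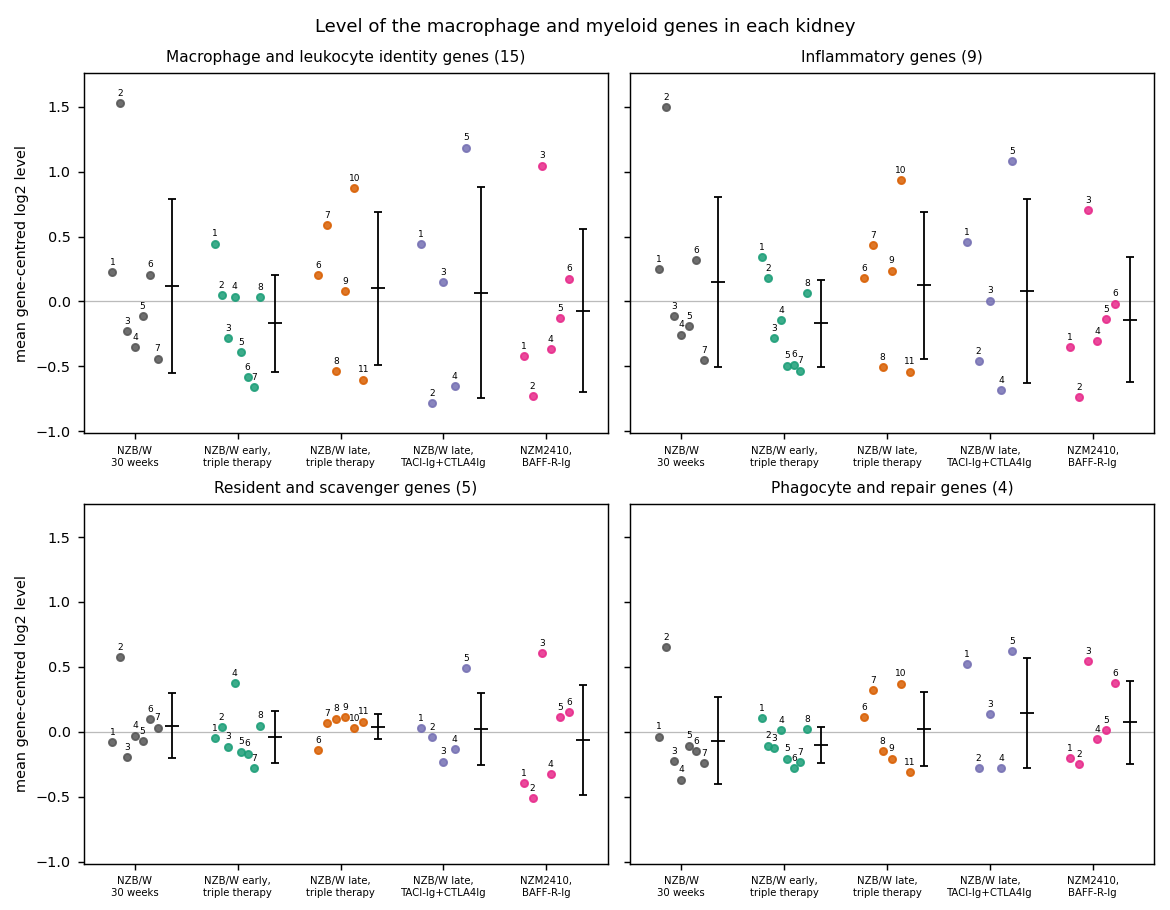
Level of each role in each kidney, as the mean over its genes of the log2 value minus the gene's mean over 32 kidneys, with replicate numbers beside the points and black bars for the group mean ± SD. Identity and inflammatory genes reach 1.53 and 1.50 in 30-week replicate 2, where resident and scavenger genes reach 0.58 and phagocyte and repair genes 0.65.

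The level of the 9 inflammatory genes averaged 0.15 ± 0.65 (SD, n = 7) at 30 weeks, -0.17 ± 0.34 (n = 8) in early remission, 0.12 ± 0.57 (n = 6) in late triple therapy, 0.082 ± 0.71 (n = 5) in the TACI-Ig group and -0.14 ± 0.48 (n = 6) in NZM2410 kidneys. That of the 5 resident and scavenger genes averaged 0.046 ± 0.25, -0.039 ± 0.20, 0.04 ± 0.095, 0.022 ± 0.28 and -0.06 ± 0.42 in the same order. The inflammatory group means lay closer together than the SD of any group. The resident and scavenger means lay closer together than the SD of every group but late triple therapy. No p is given for such means of a chosen list.

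The inflammatory genes spread wider than the resident and scavenger genes (median within-group SD 0.52 against 0.26), so the lists weigh unequally in their difference. The inflammatory minus the resident and scavenger level was taken for each kidney. It ran from -0.48 to 0.92 at 30 weeks, from -0.51 to 0.39 in early remission, from -0.62 to 0.91 in late triple therapy, from -0.55 to 0.59 in the TACI-Ig group and from -0.25 to 0.10 in NZM2410 kidneys. In late triple therapy replicate 10 the inflammatory level was 0.93 and the resident and scavenger level 0.026. Adgre1, Cx3cr1 and Csf1r, named above as marks of the resident network, were counted with the identity genes and not in this difference. The identity level in that kidney was 0.87. In NZM2410 replicate 3 the inflammatory level was 0.70 and the resident and scavenger level 0.60. There Mrc1, Pf4 and Msr1 were the highest of their group, Folr2 was the lowest and Cd163 was not the highest. Of the resident genes, Folr2 ranged from 6.31 to 6.57 and Cd163 from 4.57 to 5.06 over all 6 NZM2410 kidneys, while Mrc1 ranged from 6.74 to 8.95 and Pf4 from 5.24 to 7.82.

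Promoters are shown because binding sites for PU.1, a transcription factor of the myeloid lineage, are known from many myeloid promoters. RefSeq promoters (build GRCm38.p6, 250 bases before to 50 bases after the start site) were at hand for 26 of the 33 genes, with 2 each for 5 genes, and a gene was counted once if any of its promoters held a motif. The PU.1-type core GAGGAA, on either strand, was in 17 of these 26 genes (65.4%) and in 31.25% of 27025 genes with a promoter of this length. The longer GAGGAAGT, which contains it, was in 4 of 26 (15.4%) and 3.69% of all, and the AP-1-type TGANTCA in 7 of 26 (26.9%) and 8.97%. A match describes letters in a window and is not a binding site. Lyz2, Mpeg1, Lgals3, Itgax and Tlr2 held no GAGGAA and were the highest of their group in both 30-week replicate 2 and NZM2410 replicate 3. The rest of the genes whose promoters held no GAGGAA were Folr2, Cx3cr1, Gpnmb and Cd163. Of these, Folr2 was highest only in 30-week replicate 2, Cx3cr1 only in NZM2410 replicate 3, and Gpnmb and Cd163 in neither. A link between motifs and levels was not tested. The 4 genes with GAGGAAGT follow first, namely Cd53 (chr3:106790100-106790399, minus strand), Ctss (chr3:95526536-95526835, plus strand), Pf4 (chr5:90772185-90772484, plus strand) and Emr4 (chr17:55749734-55750033, plus strand), whose matches, all on the opposite strand, begin 6, -2, -10 and 41 bases from the start site. Itgam (chr7:128062390-128062689, plus strand) is given for its 3 copies of the core, and Cd163 (chr6:124304401-124304700, plus strand), which was not highest in either of the 2 high kidneys above, for having no match. Each runs 5′ to 3′ along the gene with every match to GAGGAA or GAGGAAGT on either strand in capitals.
Cd53: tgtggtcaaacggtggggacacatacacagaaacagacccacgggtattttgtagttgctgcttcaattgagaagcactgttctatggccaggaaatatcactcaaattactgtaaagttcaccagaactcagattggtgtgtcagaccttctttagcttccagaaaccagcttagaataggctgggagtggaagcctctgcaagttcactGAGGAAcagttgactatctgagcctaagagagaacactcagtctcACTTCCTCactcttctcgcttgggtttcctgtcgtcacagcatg
Ctss: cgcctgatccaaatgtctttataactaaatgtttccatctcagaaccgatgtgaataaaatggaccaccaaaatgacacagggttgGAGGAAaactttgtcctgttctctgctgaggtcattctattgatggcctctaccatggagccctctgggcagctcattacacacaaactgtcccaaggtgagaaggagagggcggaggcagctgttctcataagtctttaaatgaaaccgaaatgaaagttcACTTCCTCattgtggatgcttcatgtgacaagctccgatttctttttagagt
Pf4: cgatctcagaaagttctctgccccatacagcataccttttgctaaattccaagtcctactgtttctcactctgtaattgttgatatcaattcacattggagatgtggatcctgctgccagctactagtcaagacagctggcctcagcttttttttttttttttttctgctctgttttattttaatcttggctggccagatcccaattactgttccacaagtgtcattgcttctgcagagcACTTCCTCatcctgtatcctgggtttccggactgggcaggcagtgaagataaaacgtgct
Emr4: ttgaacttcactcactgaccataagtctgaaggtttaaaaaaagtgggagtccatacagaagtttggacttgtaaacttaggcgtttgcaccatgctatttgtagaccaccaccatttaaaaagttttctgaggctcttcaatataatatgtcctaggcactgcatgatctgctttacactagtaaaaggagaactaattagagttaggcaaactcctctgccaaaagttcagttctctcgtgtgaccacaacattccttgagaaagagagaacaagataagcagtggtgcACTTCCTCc
Itgam: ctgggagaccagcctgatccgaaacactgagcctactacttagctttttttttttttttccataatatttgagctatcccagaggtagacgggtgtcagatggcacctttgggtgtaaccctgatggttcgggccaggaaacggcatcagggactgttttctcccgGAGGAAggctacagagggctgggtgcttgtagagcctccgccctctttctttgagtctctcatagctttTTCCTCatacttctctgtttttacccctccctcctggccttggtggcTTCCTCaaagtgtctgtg
Cd163: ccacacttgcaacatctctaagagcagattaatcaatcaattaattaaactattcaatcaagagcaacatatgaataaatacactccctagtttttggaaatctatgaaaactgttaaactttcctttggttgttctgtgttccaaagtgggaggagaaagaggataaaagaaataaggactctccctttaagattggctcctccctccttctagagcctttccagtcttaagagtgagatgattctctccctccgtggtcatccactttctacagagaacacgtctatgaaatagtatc

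Among NZB/W groups, the comparisons ask whether macrophage genes differ between the 30-week stage without proteinuria and remission, and between remissions. No gene of the 33 passed the threshold in any of the 4 comparisons (limma, Benjamini-Hochberg adjusted p below 0.05). Few genes of any kind did: of all 15780 genes, 0% were called higher and 0% lower in early remission against 30 weeks, in TACI-Ig against 30 weeks and in TACI-Ig against early remission, and 0% higher and 0.0697% (11 genes) lower in late triple therapy against early remission. These shares rest in part on 1 kidney. Without TACI-Ig replicate 2, 3.28% of all genes were called higher and 5.02% lower against 30 weeks, and 2.43% of all genes were called higher and 4.39% lower against early remission. At an unadjusted p below 0.05 there were 2 of the 33 genes in early remission against 30 weeks (6.06%, against 8.78% of all genes), 2 in TACI-Ig against 30 weeks (6.06% against 20.3%), 2 in TACI-Ig against early remission (6.06% against 14.8%) and 1 in late triple therapy against early remission (3.03% against 5.31%).

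A lower mean than at 30 weeks was seen for 31 of the 33 genes in early remission, with a median difference of -0.21, against 0.019 over all genes, of which 59.6% lay above 0. Without 30-week replicate 2 the median was -0.024 and 17 genes lay below 0. Among kidneys whose mouse code starts with BG, all 7 at 30 weeks and replicates 1, 5, 6 and 7 in early remission, the median was -0.39. The smallest p belonged to Cybb, the gp91 subunit of the phagocyte NADPH oxidase. Its values ran from 7.07 to 8.48 (median 7.61) at 30 weeks and from 6.61 to 7.50 (median 7.19) in early remission, where 8 of 8 lay below the 30-week mean (difference -0.57, SE 0.19, limma adjusted p = 0.388). Cx3cr1 lay below it in 7 of 8 kidneys (-0.32, SE 0.11, adjusted p = 0.397) and Itgb2, the shared beta 2 chain of the leukocyte integrins, in 7 of 8 (-0.50, SE 0.25, adjusted p = 0.588). The ranges of all 3 genes overlapped between the groups. Markers of other tissues also differed in their means, with the adrenal cortex list (1 of 7 genes above 0, median -0.97) and the tubular injury list (0 of 4 genes above 0, median -0.25) lower in early remission, although none of their genes passed, and their part in the result was not tested.

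For the TACI-Ig group, the median difference from 30 weeks was 0.029 over the 33 genes and 0.035 over all genes, and 17 genes lay above and 16 below 0. Without TACI-Ig replicate 5 it was -0.18, and without 30-week replicate 2 it was 0.18. The smallest p was that of Cx3cr1, with values of 5.85, 6.03, 6.21, 5.77 and 6.40 against a 30-week mean of 6.47, which 5 of 5 lay below (difference -0.42, SE 0.14, limma adjusted p = 0.203). Lgals3, galectin 3, a lectin of phagocytes and injured epithelium, had a difference of 0.40 (SE 0.18, adjusted p = 0.241) and Cybb one of -0.59 (SE 0.28, adjusted p = 0.246). All 3 genes overlapped between the groups. Means of marker lists differed here too, without any gene passing. The adrenal cortex list (0 of 7 genes above 0, median -3.07) and the adipose list (1 of 3, median -0.84) lay lower in the TACI-Ig group. The proximal tubule list (1 of 7, median -0.405) lay lower as well, and the neutrophil list (6 of 6, median 0.21) higher. The part of these tissues and cells in the macrophage gene values was not tested.

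Against early remission, 27 of 33 genes had a higher mean in the TACI-Ig group, with a median of 0.19 against 0.012 over all genes. Without TACI-Ig replicate 5 the median was -0.044. Means of other cells' markers also differed, without any gene passing. The T cell list (7 of 7 genes above 0, median 0.21) and the tubular injury list (4 of 4 genes above 0, median 0.40) lay higher in the TACI-Ig group, and the proximal tubule list (0 of 7 genes above 0, median -0.49) and the adrenal cortex list (0 of 7 genes above 0, levels of -1.34 to -1.18 against -1.61 to 1.94) lower. Their part in the macrophage gene values was not tested. Lgals3 in the TACI-Ig kidneys was 10.47, 9.83, 10.40, 10.19 and 10.65 and ran from 9.46 to 10.14 (median 9.89) in early remission (difference 0.47, SE 0.14, limma adjusted p = 0.167). Tlr2, which senses bacterial lipoproteins, had a difference of 0.39 (SE 0.18, adjusted p = 0.321) and Laptm5, a lysosomal protein of leukocytes, one of 0.64 (SE 0.32, adjusted p = 0.37). Without TACI-Ig replicate 2, the lowest kidney for 15 genes, these 3 passed the threshold, with Lgals3 at 0.59 (adjusted p = 0.0152), Tlr2 at 0.58 (adjusted p = 0.0268) and Laptm5 at 0.96 (adjusted p = 0.0486). At this setting 2.43% of all genes were called higher and 4.39% lower. Over all alternatives the adjusted p ranged from 0.0152 to 0.44 for Lgals3, from 0.0268 to 0.69 for Tlr2 and from 0.0486 to 0.719 for Laptm5.

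In late against early remission after triple therapy, 31 of 33 genes had a higher mean, with a median of 0.24 against -0.0078 over all genes. This is not a separate result on late remission. The late triple therapy mean lay within 0.0117 of a pooled mean in the 33 genes, and within 0.0255 in any gene. That pooled mean is of the TACI-Ig kidneys and the NZB/W kidneys with no treatment named. The differences here, those of the marker lists included, therefore largely restate those of early remission from these groups. Without late triple therapy replicate 10 the median was 0.13. The T cell list (7 of 7 genes above 0, median 0.13) and the tubular injury list (4 of 4 genes above 0, median 0.33) also lay higher, and the proximal tubule list (0 of 7 genes above 0, median -0.23) lower, and their part was not tested. The smallest p was that of Lgals3 (10.08 against 9.84, difference 0.24, SE 0.10, limma adjusted p = 0.862), which ran from 9.75 to 10.23 (median 10.12) in late triple therapy. Ms4a6d had a difference of 0.49 (SE 0.27) and Fpr2 one of 0.50 (SE 0.30), both with an adjusted p of 1.

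**Figure D3:**
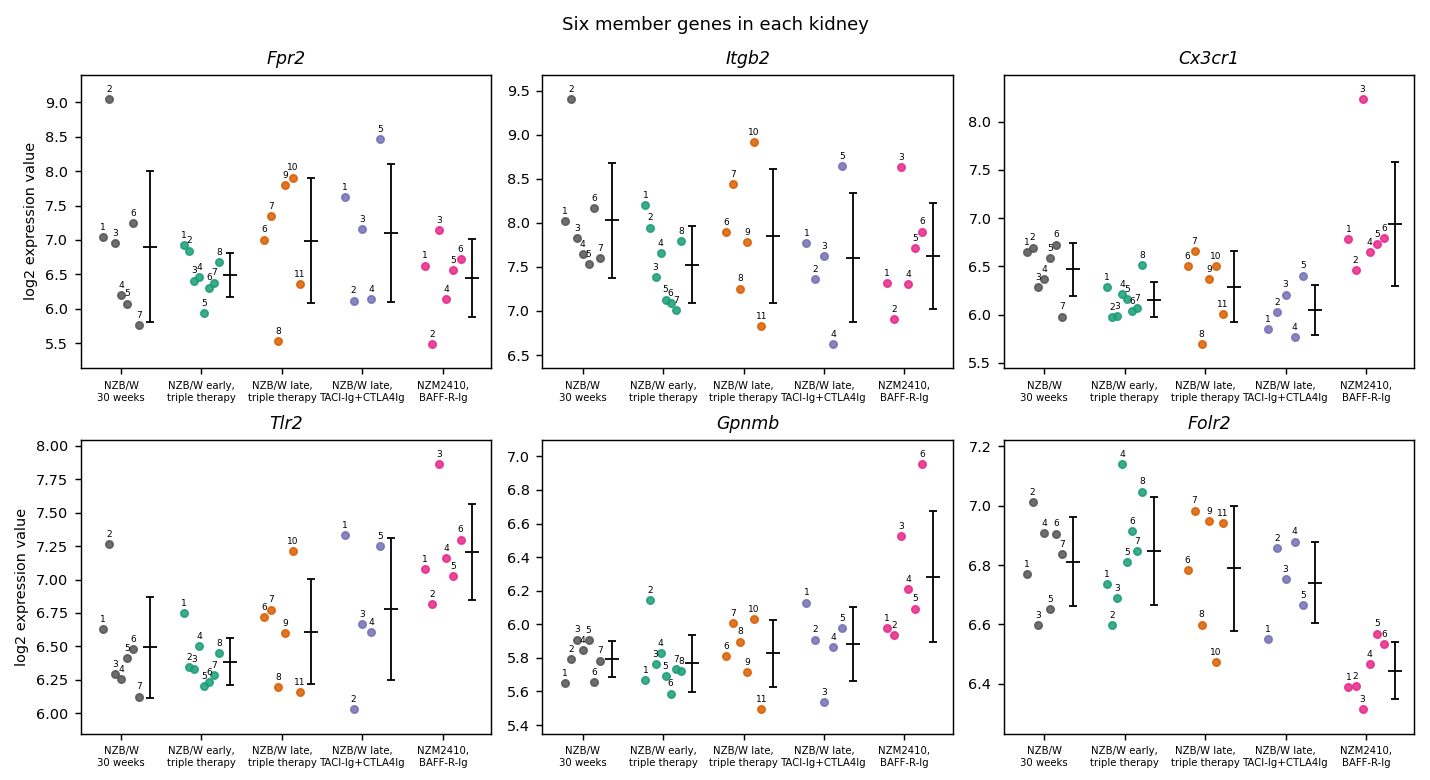
Log2 values of 6 genes in every kidney, with replicate numbers beside the points and black bars for the group mean ± SD on axes that do not start at 0. Fpr2 and Itgb2 spread widely and overlap between groups, Cx3cr1 reaches 8.23 in NZM2410 replicate 3, and Tlr2 and Gpnmb lie higher and Folr2 lower in NZM2410 kidneys than at 30 weeks.

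NZM2410 kidneys in remission were set against 30-week NZB/W kidneys and against the TACI-Ig group, and both comparisons share the NZM2410 kidneys. Against 30 weeks, 3 of the 33 genes (9.09%) were higher and 2 (6.06%) lower, while 31.5% of all genes were called higher and 31.3% lower. Against the TACI-Ig group, 1 of 33 (3.03%) was higher and 3 (9.09%) lower, while 28.6% of all genes were called higher and 30.9% lower. All 4 shares of the 33 genes lay below the background, but their median within-group SD was 0.59, against 0.14 over all genes. At a wider spread a difference of a given size is less likely to pass, so these shares do not compare the sizes of differences. The median difference over the 33 genes was -0.20 against 30 weeks and -0.13 against TACI-Ig, beside 0.017 and 0.0041 over all genes. Without 30-week replicate 2 the first was 0.0067, and without 30-week replicate 2 and NZM2410 replicate 3 together, a setting chosen after the data were seen, it was -0.22. The median against TACI-Ig was -0.28 without NZM2410 replicate 3, 0.039 without NZM2410 replicate 2 and 0.036 without TACI-Ig replicate 5, so its sign turned with single kidneys.

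Folr2, the folate receptor beta of resident macrophages, had the smallest p in both strain comparisons. Its log2 values in NZM2410 kidneys ran from 6.31 to 6.57 (median 6.43) and at 30 weeks from 6.60 to 7.01 (median 6.84). The groups did not overlap (difference -0.37, SE 0.07, limma adjusted p = 0.000363), at a fold of 0.775. In the TACI-Ig kidneys Folr2 was 6.55, 6.86, 6.75, 6.88 and 6.67 (difference -0.30, SE 0.076, limma adjusted p = 0.00441), with NZM2410 replicate 5 just above TACI-Ig replicate 1. Folr2 passed at the 0.05 threshold in every alternative fit of both comparisons, and in neither did it pass the stricter size rule of the study. The other resident and scavenger genes but Cd163 did not pass. Mrc1 differed by 0.046 (SE 0.32), Msr1, the macrophage scavenger receptor, by 0.14 (SE 0.10) and Pf4 by -0.10 (SE 0.37) from 30 weeks.

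Cd163 ran from 4.57 to 5.06 (median 4.76) in NZM2410 kidneys and from 4.84 to 5.28 (median 5.01) at 30 weeks (difference -0.25, SE 0.096, limma adjusted p = 0.0358). The groups overlapped. After quantile normalization of all arrays the difference was -0.032 (adjusted p = 0.791), and in the joint fit over all groups the adjusted p was 0.125. The call was also lost without NZM2410 replicate 1, 2 or 4 and without 30-week replicate 4, 6 or 7, with an adjusted p of up to 0.0864. Over all alternatives the adjusted p of Cd163 ranged from 0.00911 to 0.791. Cd163 is a dim gene, at percentile 15.5 of all genes by mean level.

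Tlr2 was higher in NZM2410 kidneys, running from 6.82 to 7.86 (median 7.12) against 6.12 to 7.26 (median 6.41) at 30 weeks, where only replicate 2 reached into the NZM2410 range (difference 0.71, SE 0.18, limma adjusted p = 0.00309). The fold was 1.64. Tlr2 passed at the 0.05 threshold in every alternative fit of this comparison. Against the TACI-Ig kidneys, with 7.33, 6.03, 6.67, 6.61 and 7.25, the Tlr2 result did not pass (difference 0.43, SE 0.23, limma adjusted p = 0.12), although it did without TACI-Ig replicate 1. The 8 other inflammatory genes all had a lower mean than at 30 weeks and none passed, among them Itgax (-0.51, SE 0.23, adjusted p = 0.0641), Itgam (-0.30, SE 0.28, adjusted p = 0.356), Clec7a, the beta-glucan receptor dectin 1 (-0.30, SE 0.28, adjusted p = 0.373), and Cd14 (-0.12, SE 0.24, adjusted p = 0.694).

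Gpnmb, a glycoprotein of lysosome-rich phagocytes, passed in every alternative fit that kept it, and was left out with the dim genes. It ran from 5.94 to 6.95 (median 6.15) in NZM2410 kidneys and from 5.65 to 5.91 (median 5.79) at 30 weeks, without overlap (difference 0.49, SE 0.14, limma adjusted p = 0.0059). Against TACI-Ig it did not pass (difference 0.40, SE 0.17, limma adjusted p = 0.0585). Gpnmb did pass there in the joint fit, after quantile normalization, without NZM2410 replicate 1 or 2 and without TACI-Ig replicate 1. Lgals3 was higher than at 30 weeks (10.42 against 9.91, difference 0.51, SE 0.19, limma adjusted p = 0.0291), with 11.16 in NZM2410 replicate 3 and 10.08 to 10.49 in the others. Without that kidney the difference was 0.36 (adjusted p = 0.0638), and with quantile normalization it was 0.41 (adjusted p = 0.0928). The call was lost too after median centring, and without NZM2410 replicate 6 or 30-week replicate 3, 4 or 6. In the removals of these 4 kidneys the adjusted p lay between 0.0513 and 0.0583, and over all alternatives it ranged from 0.000184 to 0.0928. Against the TACI-Ig group Lgals3 did not pass (difference 0.11, SE 0.19, limma adjusted p = 0.63). Trem2, a lipid-sensing receptor that signals through Tyrobp, did not pass against 30 weeks (difference 0.058, SE 0.093, limma adjusted p = 0.602).

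Cx3cr1 was the 1 gene higher than in the TACI-Ig group, and the groups did not overlap. It ran from 6.46 to 8.23 (median 6.76) in NZM2410 kidneys, and the highest TACI-Ig kidney had 6.40 (difference 0.89, SE 0.26, limma adjusted p = 0.00998). The fold was 1.85. Without NZM2410 replicate 3 the difference was 0.63 (adjusted p = 0.000673), and over all alternatives the adjusted p ranged from 0.000523 to 0.0268. Against 30 weeks Cx3cr1 did not pass (difference 0.47, SE 0.23, limma adjusted p = 0.0914), although it did in the joint fit over all groups. Among NZB/W groups the mean was 6.05 in the TACI-Ig group, 6.15 in early remission, 6.29 in late triple therapy and 6.47 at 30 weeks, and neighbours in this order overlapped.

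Itgax, the CD11c of dendritic cells and some macrophages, was lower in NZM2410 kidneys than in the TACI-Ig group. It ran from 6.15 to 6.88 (median 6.27) in NZM2410 kidneys and was 7.59, 6.25, 7.28, 6.34 and 7.68 in TACI-Ig kidneys (difference -0.67, SE 0.26, limma adjusted p = 0.0371). TACI-Ig replicates 2 and 4 lay within the NZM2410 range, and without TACI-Ig replicate 5 the difference was -0.51 (adjusted p = 0.101). The Itgax call was lost in 8 of 11 removals of a single kidney and held without NZM2410 replicate 3 and without TACI-Ig replicate 2 or 4, and the adjusted p reached 0.104 without TACI-Ig replicate 1 in a range of 0.00666 to 0.104 over all alternatives. Emr4, a relative of Adgre1 that RefSeq calls Adgre4, was also lower (difference -0.58, SE 0.18, limma adjusted p = 0.0127), but with quantile normalization its difference was -0.27 (adjusted p = 0.213), and in the joint fit the adjusted p was 0.0771, in a range of 0.00458 to 0.213 over all alternatives. Markers of other cells and tissues are read against the shares of all genes given above, 31.5% higher and 31.3% lower against 30 weeks and 28.6% and 30.9% against TACI-Ig. All 4 B cell markers and 3 of 4 NK cell markers were lower in both strain comparisons. Of 6 dendritic cell markers, 3 were lower and 1 higher in each. Against 30 weeks, 3 of 6 neutrophil markers were lower and 1 higher, 3 of 5 plasma cell and 3 of 4 lymph node stroma markers were lower with 1 higher in each list, and 1 of 7 T cell markers was higher and 1 lower. Of 7 proximal tubule markers 2 were higher, of 4 tubular injury markers 1 was lower, and none of 5 podocyte and 2 red cell markers passed. Against TACI-Ig, 5 of 7 proximal tubule markers were higher, with a median of 0.64. There 4 of 6 neutrophil, 3 of 4 lymph node stroma and 2 of 3 adipose markers were lower. So were 1 of 4 tubular injury and 1 of 2 red cell markers. Of 5 plasma cell markers 1 was higher and 3 lower, and of 7 T cell markers 1 and 2. Of 7 adrenal cortex markers 2 were higher and 2 lower, and no podocyte marker passed. The largest shifts against 30 weeks were those of the adrenal cortex list, with 6 of 7 lower and a median of -2.88, and of the adipose list, with 3 of 3 lower and a median of -1.66. The adrenal cortex level ran from -1.42 to -1.17 in NZM2410 kidneys, from -1.34 to -1.18 in the TACI-Ig group and from -1.26 to 2.34 at 30 weeks, and the adipose level from -2.71 to -0.45, from -1.24 to 1.08 and from 0.11 to 1.16. The B cell list level was -0.77 ± 0.099 (SD, n = 6) in NZM2410 kidneys and 0.15 ± 0.51 (n = 7) at 30 weeks. The part of these cells and tissues in the values of the macrophage genes, Folr2, Itgax and Emr4 among them, was not tested.

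The general markers did not pass against 30 weeks. The difference was -0.45 for Cd68 (SE 0.32, limma adjusted p = 0.228), -0.56 for Adgre1 (SE 0.35, adjusted p = 0.172) and -0.12 for Csf1r (SE 0.11, adjusted p = 0.36). It was -0.15 for Tyrobp (adjusted p = 0.729), -0.40 for Itgb2 (adjusted p = 0.267) and -0.45 for Fpr2 (adjusted p = 0.377). Without NZM2410 replicate 3, Adgre1, Cybb and Itgax joined Cd163 and Folr2 among the genes called lower, which made 5 of 33, and at this setting 31.5% of all genes were called higher and 31.1% lower. The same 5 genes were called lower with 30-week replicate 2 left out as well, where 33.1% of all genes were called higher and 32% lower. Itgax was also called lower after quantile normalization, after median centring, with array weights and without 30-week replicate 5.

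**Figure D4:**
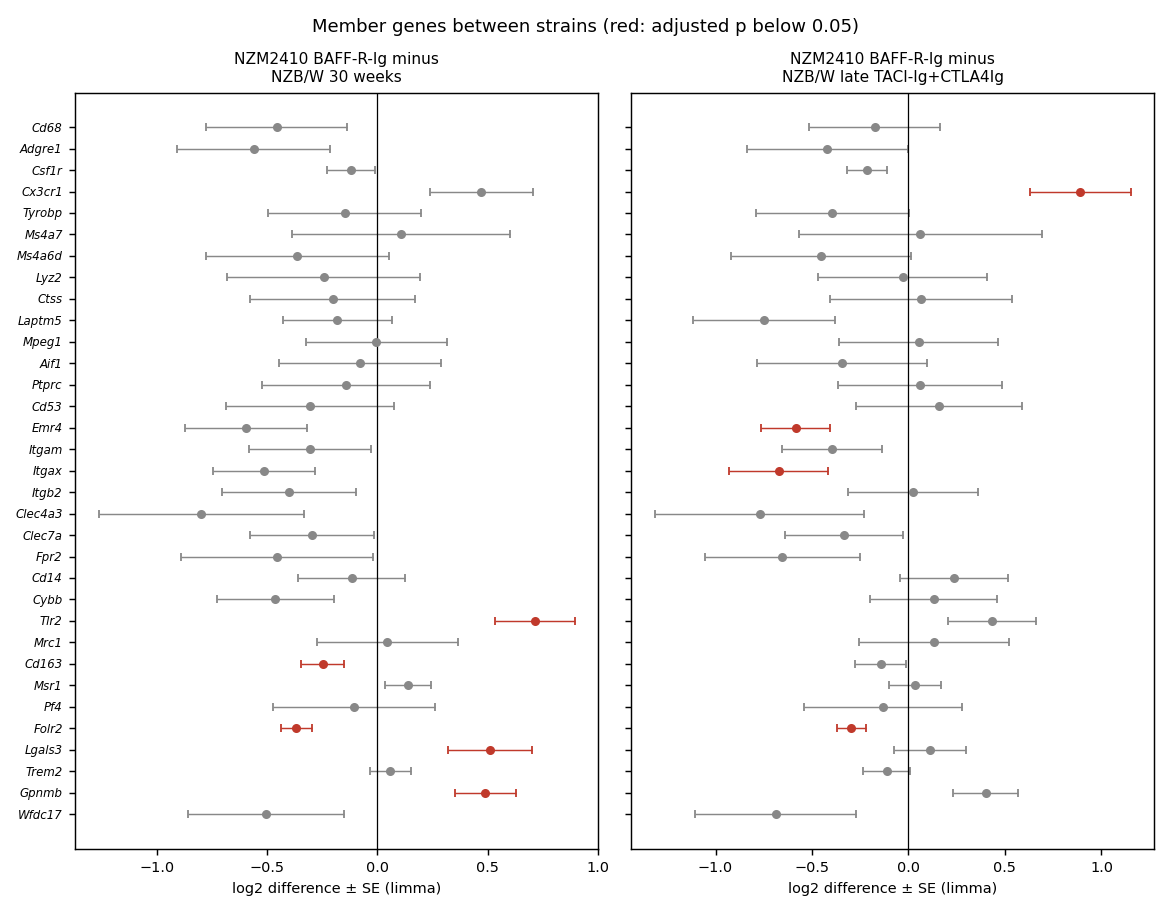
Log2 difference ± SE of each of the 33 genes between NZM2410 kidneys and 30-week kidneys, and between NZM2410 and TACI-Ig kidneys, with genes past the adjusted threshold in red. Folr2 is past it in both, at -0.37 and -0.30, with short error bars, while wider bars belong to genes such as Ms4a7 and Clec4a3.

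Genes that act with these were read from 8 further lists, and none of their genes passed in the NZB/W comparisons. Of 16 pattern recognition genes, 3 were higher and 9 lower in NZM2410 kidneys than at 30 weeks, with a median difference of -0.36. The higher ones included the nucleic acid sensor Tlr9 (1.05, SE 0.065, limma adjusted p = 1.37e-08) and the lipopolysaccharide receptor Tlr4 (0.84, SE 0.11, adjusted p = 8.74e-06). Of 8 partners and kinases of Tyrobp, 5 were lower and 0 higher, with the myeloid receptor Cd300lb at -1.27. Of 15 further resident and scavenger genes, 1 was higher and 4 lower, with the hyaluronan receptor Lyve1 at -0.69, Cd5l, a secreted macrophage protein, at -1.10 and the complement receptor Vsig4 at -0.58. Of 9 myeloid transcription factors, 4 were higher and 2 lower, with Irf5 at 0.54 and Cebpa at -0.58. Of 6 monocyte genes, 1 was higher, the chemokine receptor Ccr2 (0.87, SE 0.31, adjusted p = 0.0217), and 2 were lower. Of 13 activation and repair genes, 1 was higher and 6 lower, with Retnla, a marker of alternative activation, at -2.02. Of 8 growth factors and receptors, 2 were higher and 4 lower, and of 4 NADPH oxidase genes 1 was lower, Rac2 at -0.90. These counts (limma, adjusted over all genes) are read against 31.5% of all genes higher and 31.3% lower, and the part of the adrenal cortex and adipose markers that differed with them was not tested.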

How the data were processed

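Whole-kidney RNA (Trizol) was measured on Affymetrix arrays with 1 probe set per gene. The authors deposited log2 values after RMA (per the labels) and normalized and batch-corrected all arrays together, which can narrow or widen group differences in ways that cannot be traced here, since batches are not named. The version of the software is not given in the sources used here. Of 16539 probe sets, 64 controls and 695 without a gene name were left out, and 15780 genes were tested, of which 15752 were found in RefSeq. Groups were taken from the labels, and all 32 columns were mapped. Each of 6 comparisons was fitted on its 2 groups with limma 3.58.1 in R 4.3.3, by lmFit and then eBayes. P-values were adjusted for the 15780 genes by Benjamini and Hochberg, with 0.05 as the threshold, and the fit was tested on simulated data. The study used SAM, and its thresholds, applied to the limma values, are among the alternatives. Alternatives were a joint fit, quantile normalization, median centring, leaving out dim genes, a robust prior, array weights, a replicate block, mouse codes, scaling of genes to unit SD and leaving out each kidney. Levels of lists are means of gene-centred values and were not tested. Promoters were read from RefSeq with Python 3.11.15 and pandas 2.3.3. The members and lists were chosen with earlier results of these data known. Named are 13 general, inflammatory and scavenger genes whatever they show, the 3 members with the smallest p in each comparison, all members past the threshold, members with a kidney that stands apart, and up to 3 genes per further list. Other genes named were chosen after their values were seen.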

Additional observations from a re-analysis of the deposited data

Results flagged for a closer look

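Dixon's test at the 95% level, run on the highest and lowest kidney of each group for the 33 genes and the levels of their lists, found 30 values that stood apart in 190 tests. Chance alone gives about 1 in 20, and the genes are not independent of each other. Of these, 21 were 30-week replicate 2, the highest of its group each time. Its log2 values, with the range of the other 6 kidneys in parentheses, were Cd68 8.29 (6.57 to 7.15), Itgax 8.12 (6.39 to 7.06), Itgb2 9.40 (7.53 to 8.17), Tyrobp 10.54 (8.22 to 8.87), Ms4a6d 8.03 (4.89 to 5.92), Mrc1 8.57 (7.03 to 7.56), Ctss 12.25 (10.15 to 10.95) and Laptm5 9.21 (7.59 to 7.90). They were also Lgals3 10.73 (9.59 to 9.97), Clec7a 8.54 (6.62 to 7.23), Msr1 6.56 (5.98 to 6.16), Mpeg1 10.38 (8.72 to 9.27), Aif1 8.46 (6.20 to 7.04), Ptprc 10.74 (8.13 to 9.09), Pf4 7.47 (5.95 to 6.44) and Cd53 9.68 (7.17 to 8.21). The level of all 33 genes was 1.27 (-0.35 to 0.18) in that kidney, that of the identity genes 1.53 (-0.44 to 0.23), of the inflammatory genes 1.50 (-0.45 to 0.32), of the resident and scavenger genes 0.58 (-0.20 to 0.095) and of the phagocyte and repair genes 0.65 (-0.37 to -0.038).

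NZM2410 replicate 3 stood apart as the highest of its group for 4 genes, with log2 values of Itgax 6.88 (6.15 to 6.38), Cx3cr1 8.23 (6.46 to 6.79), Cd14 9.78 (8.14 to 8.60) and Trem2 6.73 (6.20 to 6.39). Among the other groups, Trem2 was high in early remission replicate 8, at 6.61 (6.19 to 6.34). Gpnmb was high in early remission replicate 2, at 6.15 (5.59 to 5.83). Mrc1 was high in TACI-Ig replicate 5, at 8.64 (6.90 to 7.31). Lgals3 was low in late triple therapy replicate 9, at 9.75 (10.08 to 10.23). The level of the resident and scavenger genes was low in late triple therapy replicate 6, at -0.14 (0.026 to 0.11).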

How the results depend on the processing

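With 5 to 8 kidneys a group, small differences may be missed. In TACI-Ig against early remission, the members called higher numbered 0 to 3 with each kidney left out, and 3 without TACI-Ig replicate 2, where 2.43% of all genes were called higher and 4.39% lower. In the joint fit, 0.292% of all genes were called higher and 1.7% lower there, with 0 members. With array weights, 0.494% of all genes were called higher and 0.285% lower in early remission against 30 weeks and 0.0317% of all genes were called higher and 0.38% lower in late against early triple therapy, again with 0 members. In NZM2410 against 30 weeks, 2 to 4 were called higher and 1 to 5 lower with each kidney left out. These were 5 lower without NZM2410 replicate 3, 4 lower without 30-week replicate 5 and 1 lower without NZM2410 replicate 1, 2 or 4 or 30-week replicate 4 or 6. Over these removals, 29.6% to 32.5% of all genes were called higher and 30% to 32% lower. In this comparison 1 member was called lower in the joint fit over all groups and 1 with dim genes left out (mean log2 below 6.07). With arrays centred on their medians 4 were, and 5 without both high kidneys, a setting chosen after the data were seen. Of all genes, 30.8%, 18%, 36.7% and 32% were called lower at these settings, in the same order. In NZM2410 against TACI-Ig, 1 to 3 were called higher and 2 to 5 lower with each kidney left out, with 3 higher without TACI-Ig replicate 1, 2 higher without NZM2410 replicate 1 or 2, and 5 lower without TACI-Ig replicate 2 or 4. Over these removals, 26.4% to 28.7% of all genes were called higher and 28.9% to 32% lower. In the comparison with TACI-Ig, 2 were called higher in the joint fit and 2 after quantile normalization, beside 30.9% and 24.5% of all genes. By the size rule of the study (adjusted p up to 0.001 and a fold of 1.4 or more, or 0.7 or less), 0 were higher and 0 lower in either strain comparison. Of all 15780 genes, 1176 were higher and 1452 lower by this rule against 30 weeks, and 1302 higher and 1851 lower against TACI-Ig. No value changed its sign while past the threshold. Replicate numbers do not pair the kidneys, since deviations of same-numbered kidneys correlated from -0.71 to 0.34. With the replicate number as a block, 1 gene was lower in NZM2410 kidneys than at 30 weeks, the call of Lgals3 was lost there, and 5 were lower than in the TACI-Ig group. With this block 30% of all genes were called lower against 30 weeks and 28.3% against TACI-Ig. Mouse code letters differ between the groups, other than BG at 30 weeks and in early remission and V, with 1 kidney in early remission, in both triple therapy groups, so code and group cannot be told apart elsewhere.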
